A study of Homo sapiens with 12 samples.

Results

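The actin cytoskeleton and YAP target genes described here were 41 genes chosen by symbol: regulators of the coactivators YAP and TAZ, genes these coactivators transcribe, actins, actin filament-binding proteins, crosslinkers and focal adhesion proteins. Of the 41 genes, 40 had a probe set annotated with exactly 1 symbol, and 37 passed the filter on low values, out of 13199 genes tested among 18404 with a probe set. FLNA had none that names it alone. AMOTL1, TGFB2 and ITGA5 were above the 40th percentile of all probe sets on 0 of 12 arrays, and were not tested. The study measured total RNA of HepG2C3A, a human liver tumour line that keeps many hepatocyte functions, on 12 Affymetrix gene arrays, with 3 arrays in each of 4 groups: acetaminophen-treated and control cells in a microsystem, and acetaminophen-treated and control cells in Petri dishes. Culture lasted 96 h, and treated cells received acetaminophen, an analgesic that hepatocytes metabolise, for 72 h of that time, at a dose not given in the sources used here. Control cells received none, and all groups were the same line. Cells of every group were released with trypsin before RNA extraction, per the labels.

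YAP and TAZ are transcription coactivators that enter the nucleus when cells spread, pull on their substrate or lack neighbours, and there bind the TEAD factors. The Hippo kinases LATS1 and LATS2 phosphorylate them and hold them in the cytoplasm, and filamentous actin under tension counters that. A second actin-sensing route runs through SRF, whose partner MRTF is released when free actin monomers fall, and many genes of contractile filaments are SRF targets. In liver, Hippo signalling limits organ size and keeps hepatocytes differentiated, and cell density and substrate stiffness are known to set YAP activity in cultured cells.

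Values are log2 intensities per probe set, so a difference of 1 is a doubling, and levels of different genes are not compared. A gene is said to have risen or fallen when its adjusted p in limma was under 0.05 over all 13199 genes, two-sided. Array medians lay between 5.556 and 5.629, and arrays of one group correlated at 0.991 to 0.995 over all probe sets. Both microsystem arrays numbered 3, treated and control, stood apart from the other microsystem arrays, so each call of a member gained or lost without the pair is given. Hepatocyte markers fitted the labelled line: all 8 measured, albumin and alpha-fetoprotein among them, were above the 40th percentile on all 12 arrays. Of the fibroblast and stellate cell markers, which share contractile genes, DCN, LUM, PDGFRA and RGS5 were above it on 0 arrays, and COL1A1, COL1A2, COL3A1, PDGFRB and DES on all 12. That percentile lay at 4.8 to 4.9, under the array medians, so being above it does not by itself show clear expression. Of the 5 tested, 0 passed in limma in any of the 4 comparisons of groups. At an unadjusted p under 0.05 in limma, 2 of the 5 passed for treatment in Petri dishes, where 26.3% of all genes did. For treatment in the microsystem it was 0 of 5, against 25.8% of all genes. For culture it was 1 of 5 in treated and 0 of 5 in control cells, against 49.4% and 51.9%. Summed over all 10 fibroblast and stellate cell markers, intensities were 318 to 367 in treated and 341 to 374 in control microsystem cells, against 345 to 359 in treated and 362 to 376 in control Petri cells. Endothelial markers gave 0 genes to test. The labels do not say whether replicates were separate cultures, so p-values measure the spread among these arrays only, whose source may be technical. By exact permutation, the smallest p for 3 arrays against 3 is 0.1.

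Promoters of 4 members whose values the results turn on are shown first, as 250 bases ending at the annotated start (RefSeq, GRCh38.p14), because they hold the letters bound by the factors named above. Capitals mark GGAATG or its reverse complement CATTCC (the core of the TEAD site), TGANTCA (the AP-1 site) and the CArG box of SRF, each searched on both strands. The windows are CCN2 at chr6:131951373-131951622, ANKRD1 at chr10:90921088-90921337, AMOTL2 at chr3:134374448-134374697 (1 of its 2 starts), all on the minus strand, and CNN2 at chr19:1026358-1026607 on the plus strand.
CCN2: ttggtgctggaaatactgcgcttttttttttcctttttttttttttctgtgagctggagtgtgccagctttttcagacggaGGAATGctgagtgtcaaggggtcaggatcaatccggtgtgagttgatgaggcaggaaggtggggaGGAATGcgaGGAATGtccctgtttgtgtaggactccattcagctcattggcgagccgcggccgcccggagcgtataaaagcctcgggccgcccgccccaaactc
ANKRD1: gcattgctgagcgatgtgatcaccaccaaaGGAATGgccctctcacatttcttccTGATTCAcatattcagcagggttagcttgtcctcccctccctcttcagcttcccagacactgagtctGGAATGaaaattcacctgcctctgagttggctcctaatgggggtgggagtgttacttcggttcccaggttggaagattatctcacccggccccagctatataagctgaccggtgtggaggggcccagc
AMOTL2: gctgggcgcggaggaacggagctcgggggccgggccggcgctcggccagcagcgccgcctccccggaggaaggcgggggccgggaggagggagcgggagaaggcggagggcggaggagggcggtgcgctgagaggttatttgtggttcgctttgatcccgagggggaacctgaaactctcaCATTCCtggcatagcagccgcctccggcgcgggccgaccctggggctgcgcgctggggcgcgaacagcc
CNN2: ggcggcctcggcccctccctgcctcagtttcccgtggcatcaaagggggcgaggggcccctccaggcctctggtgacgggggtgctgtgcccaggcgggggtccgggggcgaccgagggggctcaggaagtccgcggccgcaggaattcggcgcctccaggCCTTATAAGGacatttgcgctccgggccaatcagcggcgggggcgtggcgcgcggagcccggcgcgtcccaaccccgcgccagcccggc
The CCN2 window holds GGAATG 3 times, 169, 104 and 95 bases before the start, and such a number was found in 0.0826% of all 35116 promoter windows. ANKRD1 holds it 2 times, beside 1 AP-1 site, and AMOTL2 holds its reverse complement 1 time, 69 bases before the start. CNN2 holds a CArG box 89 bases before its start. For the 34 members found in the promoter table, 20 of 64 windows (31.2%) held GGAATG, against 11.9% of all windows, and 9 (14.1%) held a CArG box, against 1.16%. The AP-1 site was in 4 (6.25%), against 6.57%. No 2 of the 3 motifs overlapped in a member window. Several windows belong to 1 gene and can overlap, and a match describes letters, not binding. Counted by gene, 52.9% of the 34 members held GGAATG, against 14.3% of all genes. A CArG box was in 20.6% against 1.44%, and an AP-1 site in 11.8% against 8.06%. The members were listed for their ties to YAP and actin, so these shares are no independent evidence about the list.

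Culture in the microsystem went with lower levels of most of these genes. In treated cells 21 of the 37 members fell and 2 rose, against a background of 18.9% of all genes that fell and 22.6% that rose (41.4% in either direction). In control cells 22 fell and 3 rose, against 18.3% and 26.5% of all genes (44.9% in either direction). The members and the related lists were chosen with earlier results of these data known. The shares here and below are therefore no independent evidence about them. The members' median difference, microsystem minus Petri, was -0.36 in treated and -0.43 in control cells, where that of all genes was -0.00 and 0.01. The 3 microsystem arrays lay entirely below the 3 Petri arrays for 20 members in treated cells and 24 in control cells, as they did for 24.8% and 22.9% of all genes. A total of 19 members fell in both treated and control cells, 2 rose in both, and ACTA2 alone fell in treated and rose in control cells. The share of all genes called in both kinds of cell was not counted, so these numbers have no background beside them. These are bulk samples, in which fewer cells of a type and less RNA per cell cannot be told apart. The leukocyte markers CD68 and CD14 also fell with the microsystem, CD68 by 1.21 in treated and 1.05 in control cells, while PTPRC and CD3E were above the 40th percentile on 0 arrays. The summed intensity of the 4 leukocyte markers measured was 321 to 381 in treated and 342 to 355 in control microsystem cells, against 702 to 839 in treated and 623 to 718 in control Petri cells, and the part of what moved them in the fall of the members was not tested.

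**Figure D1:**
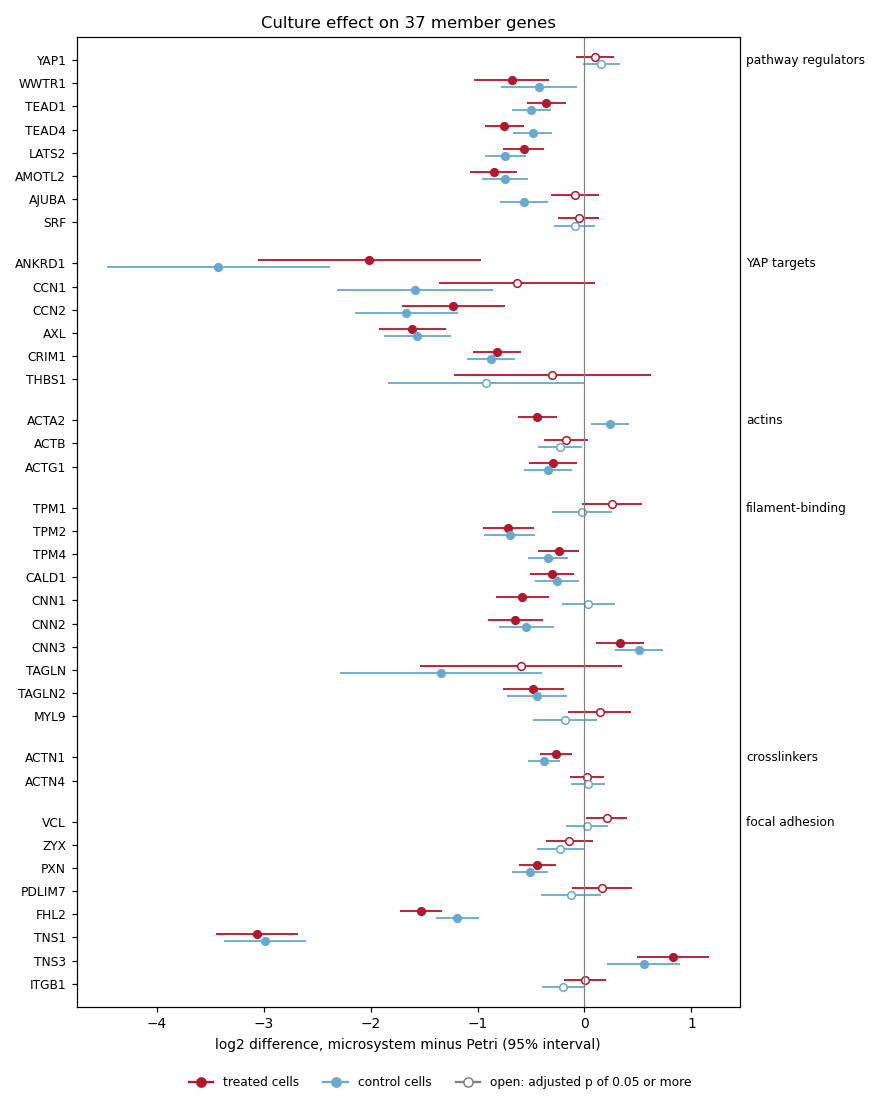
Culture effect (microsystem minus Petri, log2, with 95% interval) for the 37 tested members, grouped by role, in treated cells (red) and control cells (blue), where filled points passed adjusted p under 0.05. Most points lie left of 0, TNS1 and ANKRD1 farthest, while TNS3 and CNN3 lie right of it in both, and ACTA2 lies left in treated and right in control cells.

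Among the genes YAP and TAZ transcribe, all 6 tested were lower on average in the microsystem, 4 passing in treated and 5 in control cells. Of all genes, 18.9% fell in treated and 18.3% in control cells. ANKRD1 (probe set 7934979), a stress-induced ankyrin repeat protein and a standard readout of YAP, read 7.48, 7.96 and 9.16 in treated and 6.40, 5.69 and 8.07 in control microsystem cells, against 10.33, 10.10 and 10.22 in treated and 9.89, 10.33 and 10.21 in control Petri cells. Every microsystem array was below every Petri array, and the arrays numbered 3 were the highest of both microsystem groups. The difference was -2.01 ± 0.48 (SE) in treated cells, 4.04-fold lower (adjusted p = 0.00453), and -3.42 ± 0.48 in control cells, 10.7-fold lower (adjusted p = 8.3e-05). Without the pair of arrays numbered 3 it was -2.49 in treated cells and -4.10 in control cells, 17.1-fold lower. Because the pair was the highest of both groups, leaving it out could only lower the microsystem means. The same holds below for CCN1, CCN2, THBS1 and TAGLN. For YAP1 and VCL, where the pair was the lowest of both groups, leaving it out could only raise the means.

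CCN2 (probe set 8129562), a secreted matrix-associated protein that promotes fibrosis, had log2 values of 9.36, 9.52 and 10.20 in treated and 9.40, 9.42 and 10.27 in control microsystem cells, against 10.96, 10.88 and 10.93 in treated and 11.40, 11.28 and 11.41 in control Petri cells. Its groups did not overlap between cultures, with array 3 again the highest in the microsystem. CCN2 fell by 1.23 ± 0.22 in treated cells (adjusted p = 0.000672) and by 1.67 ± 0.22 in control cells (adjusted p = 5.39e-05), which is 2.34-fold and 3.17-fold lower. Its relative CCN1, another secreted matrix-associated protein, read 7.82, 7.84 and 8.88 in treated and 7.43, 7.15 and 8.40 in control microsystem cells, against 8.49, 8.81 and 9.13 in treated and 8.74, 9.36 and 9.62 in control Petri cells. In treated cells the groups overlapped through array 3, and the difference of -0.63 ± 0.34 did not pass (adjusted p = 0.156), while in control cells CCN1 fell by 1.58 ± 0.34 (adjusted p = 0.00187). Without the pair numbered 3, CCN1 passed in treated cells too (-0.98, adjusted p = 0.00441, from 0.00441 to 0.388 over the alternatives).

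AXL (probe set 8029006), a receptor tyrosine kinase for GAS6 and a YAP target in liver tumour cells, read 7.28, 7.27 and 7.87 in treated and 7.07, 6.79 and 6.76 in control microsystem cells, against 9.07, 8.96 and 9.22 in treated and 8.35, 8.48 and 8.46 in control Petri cells. The cultures were fully separated, and AXL fell by 1.61 ± 0.15 in treated cells (adjusted p = 2.58e-06) and by 1.56 ± 0.15 in control cells (adjusted p = 2.85e-06). CRIM1, a transmembrane protein that binds bone morphogenetic proteins, fell by 0.82 ± 0.10 and 0.88 ± 0.10 in the same order of cells (adjusted p = 4.63e-05 and 2.27e-05). THBS1, the matrix glycoprotein thrombospondin, spread widely: 7.20, 7.42 and 8.74 in treated and 6.57, 7.19 and 8.45 in control microsystem cells, against 7.62, 8.31 and 8.34 in treated and 8.27, 8.38 and 8.30 in control Petri cells. Its groups overlapped, and its differences of -0.30 (95% interval -1.22 to 0.62) and -0.92 (-1.84 to 0.00) did not pass (adjusted p = 0.612 and 0.0971). Without the pair numbered 3, THBS1 passed in treated cells (-0.78, adjusted p = 0.0116, range over alternatives 0.0116 to 0.993) and in control cells (-1.44, adjusted p = 0.000188, range 0.000188 to 0.364).

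Of the 8 tested regulators, 5 fell in treated and 6 in control cells, and 0 rose. Among all genes 18.9% fell and 22.6% rose in treated cells, and 18.3% fell and 26.5% rose in control cells. AMOTL2, an angiomotin that tethers YAP and is itself a YAP target, read 6.51, 6.74 and 6.67 in treated and 6.44, 6.65 and 6.81 in control microsystem cells, against 7.45, 7.46 and 7.57 in treated and 7.31, 7.35 and 7.48 in control Petri cells. It fell by 0.85 ± 0.10 in treated and 0.74 ± 0.10 in control cells (adjusted p = 2.17e-05 and 5.54e-05) with no overlap. LATS2, the kinase that phosphorylates YAP and TAZ and also a YAP target, fell by 0.57 ± 0.09 and 0.74 ± 0.09 in treated and control cells (adjusted p = 0.000218 and 2.37e-05). Of the DNA-binding partners among the members, TEAD4 fell by 0.75 ± 0.08 in treated and 0.48 ± 0.08 in control cells. TEAD1 fell by 0.36 ± 0.08 and 0.50 ± 0.08 in the same order. TEAD2, which is outside the member list, rose by 0.85 ± 0.18 and 1.03 ± 0.18 (adjusted p = 0.00206 and 0.000493). The partners therefore did not all fall.

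The coactivators themselves differed in pattern. YAP1 read 9.76, 9.74 and 9.56 in treated and 9.83, 9.82 and 9.66 in control microsystem cells, against 9.56, 9.54 and 9.64 in treated and 9.59, 9.59 and 9.67 in control Petri cells. These overlapped, with differences of 0.10 (95% interval -0.08 to 0.28) and 0.16 (-0.02 to 0.33) that did not pass (adjusted p = 0.352 and 0.133). Without the pair of arrays numbered 3, YAP1 passed as higher in control microsystem cells (0.215, adjusted p = 0.0428, range over alternatives 0.0428 to 0.294). WWTR1, the gene of TAZ, read 9.21, 9.34 and 8.69 in treated and 9.18, 9.07 and 8.59 in control microsystem cells, against 9.77, 9.74 and 9.78 in treated and 9.37, 9.26 and 9.48 in control Petri cells. WWTR1 fell by 0.68 ± 0.16 in treated cells (adjusted p = 0.00453) and by 0.42 ± 0.16 in control cells (adjusted p = 0.0487), a call lost in 9 of the 12 fits that left out a single array. Its microsystem arrays numbered 3 were the lowest of their groups, where those of ANKRD1, CCN1, CCN2, CRIM1 and THBS1 were the highest. AJUBA, a LIM protein that binds and inhibits LATS kinases, fell by 0.56 ± 0.10 in control cells (adjusted p = 0.000677) and differed by -0.09 ± 0.10 in treated cells (adjusted p = 0.53). SRF differed by -0.05 ± 0.09 and -0.09 ± 0.09 in treated and control cells (adjusted p = 0.67 and 0.436).

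Focal adhesion genes moved apart from each other. TNS1 (probe set 8058869), which encodes a tensin that ties actin filaments to integrins, read 6.36, 6.89 and 6.95 in treated and 6.80, 6.16 and 6.18 in control microsystem cells, against 9.87, 9.63 and 9.89 in treated and 9.51, 9.24 and 9.37 in control Petri cells. The gap between cultures exceeded 2 log2 units in every pairing of arrays. TNS1 fell by 3.07 ± 0.18 in treated cells (8.38-fold lower, adjusted p = 8.66e-08) and differed by -2.99 ± 0.18 in control cells (7.95-fold lower, adjusted p = 1.3e-07). TNS3, another tensin, ran the other way, with 9.29, 9.57 and 9.21 in treated and 9.38, 9.15 and 8.81 in control microsystem cells, against 8.79, 8.32 and 8.48 in treated and 8.77, 8.50 and 8.41 in control Petri cells. Microsystem arrays were above Petri arrays in both, and TNS3 rose by 0.83 ± 0.16 in treated (adjusted p = 0.000966) and 0.55 ± 0.16 in control cells (adjusted p = 0.0116), where the call was lost without microsystem control 1 or Petri control 3 (adjusted p up to 0.0524).

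FHL2 (probe set 8054377), a LIM protein of adhesions and nuclei that coactivates transcription, read 7.35, 7.27 and 7.54 in treated and 7.47, 7.30 and 7.40 in control microsystem cells, against 8.94, 8.80 and 9.01 in treated and 8.54, 8.67 and 8.51 in control Petri cells. It fell by 1.53 ± 0.09 in treated and 1.19 ± 0.09 in control cells (adjusted p = 1e-07 and 7.08e-07). Among treated arrays, and among control arrays, every pair from the 2 cultures lay more than 1 log2 unit apart. The scaffold gene PXN, which encodes paxillin, fell by 0.44 ± 0.08 and 0.51 ± 0.08 (adjusted p = 0.000593 and 0.000171), but a second PXN probe set, not used, gave -0.02 and 0.01. VCL (vinculin), ZYX (zyxin), PDLIM7 and the integrin beta chain gene ITGB1 did not pass in either kind of cell, with differences between -0.22 and 0.21. VCL passed in treated cells without the pair numbered 3 (0.26, adjusted p = 0.0337, range over alternatives 0.0337 to 0.265).

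Of the 3 actins, 2 fell in treated cells, and 1 fell and 1 rose in control cells. For these and the filament-binding genes below, the background in treated cells was 18.9% of all genes that fell and 22.6% that rose. In control cells the background was 18.3% and 26.5%. ACTG1 (cytoplasmic gamma actin) fell by 0.29 ± 0.10 in treated and 0.34 ± 0.10 in control cells (adjusted p = 0.0373 and 0.0174), and ACTB (beta actin) differed by -0.17 ± 0.10 and -0.23 ± 0.10 (adjusted p = 0.161 and 0.0616). The call of ACTG1 was lost in 4 of the 12 fits without a single array in treated cells and in 3 in control cells. Actin genes are near-identical in coding sequence, as tropomyosin genes are in part, so probes may read relatives and these values are uncertain. Of the 10 filament-binding genes, 6 fell and 1 rose in each kind of cell. TPM2, a tropomyosin, fell by 0.71 ± 0.11 in treated and 0.70 ± 0.11 in control cells, and CNN2, a calponin, by 0.65 ± 0.12 and 0.55 ± 0.12. CNN3, a calponin of non-muscle cells, rose by 0.33 ± 0.10 and 0.51 ± 0.10 (adjusted p = 0.0195 and 0.00128), the call in treated cells being lost without the pair numbered 3 (adjusted p = 0.0527, range over alternatives 0.00442 to 0.0665).

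TAGLN, the smooth muscle protein transgelin and an SRF target, read 6.01, 6.14 and 7.62 in treated and 5.84, 6.28 and 7.15 in control microsystem cells, against 6.45, 7.49 and 7.61 in treated and 7.24, 7.89 and 8.17 in control Petri cells. The groups overlapped in treated cells (-0.60 ± 0.44, adjusted p = 0.304) and not in control cells, where TAGLN fell by 1.34 ± 0.44 (adjusted p = 0.0232). This call was lost without microsystem control 1 or 2 or Petri control 2 or 3, with an adjusted p of at most 0.0909. Without the pair numbered 3 it passed in both, at -1.11 and -1.71 (adjusted p = 0.0154 and 0.00105, in ranges of 0.0154 to 0.656 and 0.000137 to 0.0909). TAGLN2 fell by 0.48 ± 0.13 and 0.45 ± 0.13, TPM4 by 0.24 ± 0.09 and 0.34 ± 0.09 (a second TPM4 probe set, not used, gave -0.15 and -0.19), and CALD1 (caldesmon) by 0.30 ± 0.09 and 0.26 ± 0.09, in treated and control cells. CNN1, a smooth muscle calponin near the filter limit and above it on 8 of 12 arrays, fell by 0.58 ± 0.12 in treated cells (adjusted p = 0.0013) and differed by 0.04 ± 0.12 in control cells. TPM1 and the myosin light chain gene MYL9 did not pass in either. Of the crosslinkers, ACTN1 fell by 0.26 ± 0.07 and 0.38 ± 0.07 (adjusted p = 0.00772 and 0.000661), while ACTN4 differed by 0.02 ± 0.07 and 0.03 ± 0.07.

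**Figure D2:**
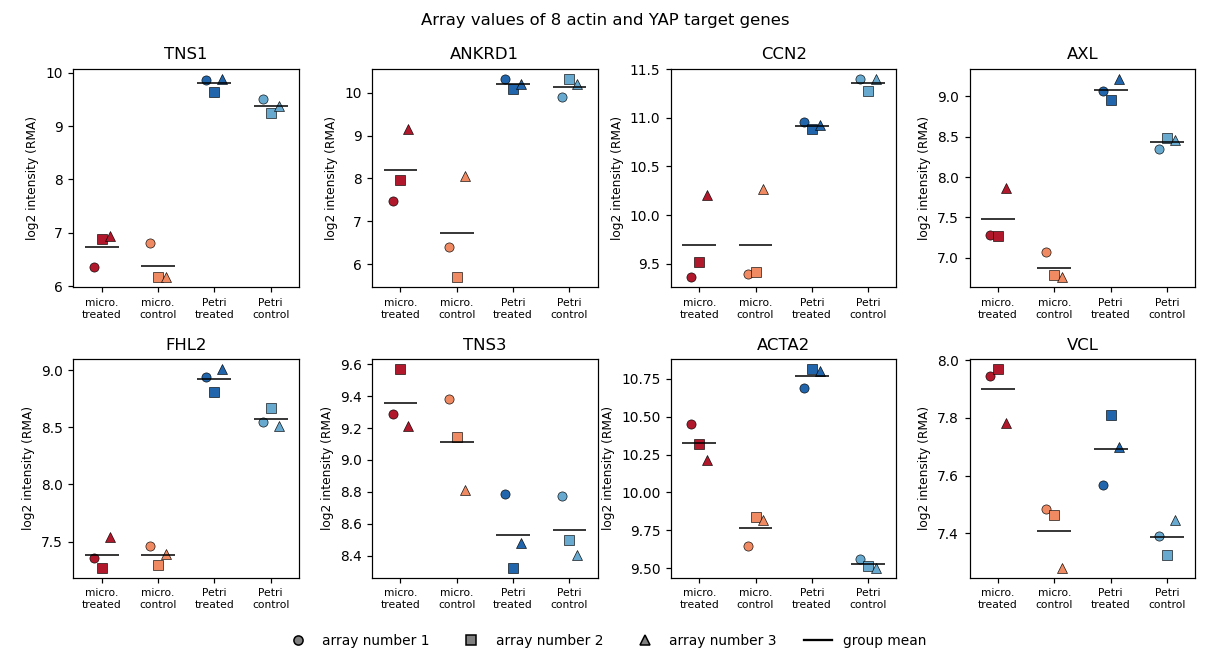
Log2 intensity of 8 members on each of the 12 arrays, with groups from left to right treated and control microsystem cells and treated and control Petri cells, symbols for the array number and a line at each group mean. TNS1, ANKRD1, CCN2, AXL and FHL2 are lower in the microsystem, TNS3 is higher, and ACTA2 and VCL are higher in treated than in control cells of both cultures.

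**Figure D3:**
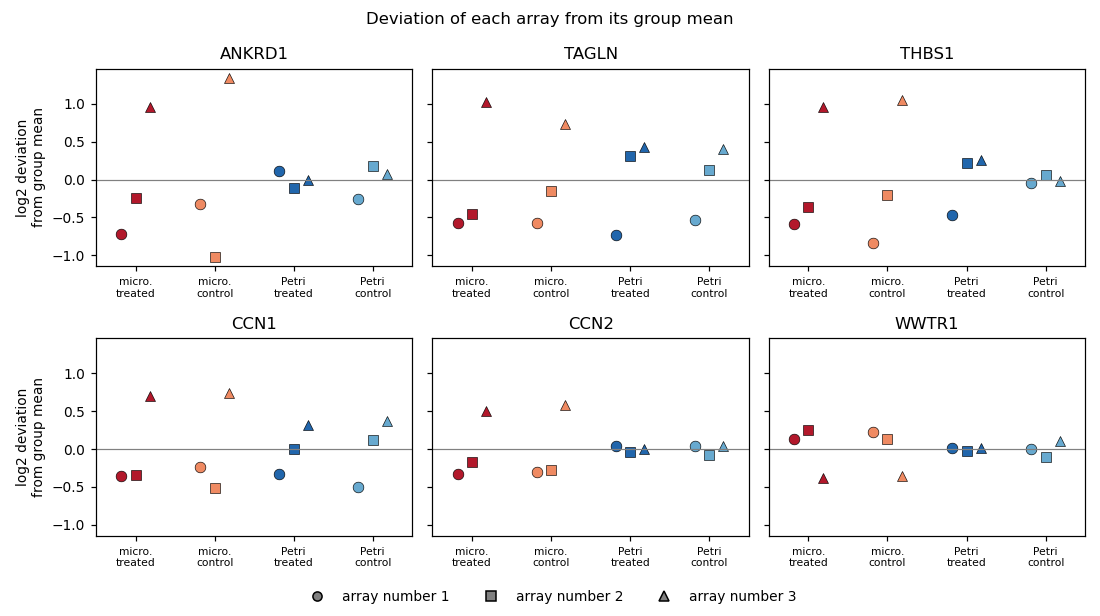
Deviation of each array from its group mean (log2) for 6 members, with groups as in the plot of values by array and symbols for the array number. In both microsystem groups array 3 is the highest for ANKRD1, TAGLN, THBS1, CCN1 and CCN2 and the lowest for WWTR1.

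When each of the 12 arrays was left out in turn, between 19 and 26 members passed in each culture comparison, against 23 and 25 with all arrays. Of these calls, 19 of 23 in treated and 18 of 25 in control cells held without any single array, and those of ACTG1, TPM4, CALD1 and CNN3 in treated cells, and of WWTR1, ACTA2, ACTG1, CALD1, TAGLN, TAGLN2 and TNS3 in control cells, did not.

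Acetaminophen moved fewer of these genes. With treatment, 6 of 37 members rose in the microsystem and 1 fell, against 6.39% of all genes that rose and 2.67% that fell (9.06% in either direction). In Petri dishes 6 rose and 1 fell as well, against 8.38% and 1.98% (10.4% in either direction). The members' median difference, treated minus control, was 0.12 in the microsystem and 0.03 in Petri dishes, where that of all genes was -0.01 and 0.01. ACTA2, AXL, TAGLN2 and VCL rose in both cultures.

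ACTA2 (probe set 7934906), the smooth muscle alpha actin, carried the largest of the called changes in Petri dishes. It read 10.45, 10.32 and 10.21 in treated against 9.64, 9.84 and 9.82 in control microsystem cells, and 10.69, 10.81 and 10.80 in treated against 9.56, 9.52 and 9.50 in control Petri cells. The treated arrays were above the control arrays in both cultures. ACTA2 rose by 0.56 ± 0.08 in the microsystem, 1.47-fold (adjusted p = 0.00192), and by 1.24 ± 0.08 in Petri dishes, 2.36-fold (adjusted p = 2.75e-06). Set by culture, ACTA2 fell in the microsystem by 0.44 ± 0.08 among treated cells (adjusted p = 0.00096) and rose by 0.24 ± 0.08 among control cells (adjusted p = 0.0337), the last call being lost without microsystem control 2 or 3 or Petri control 2 or 3 (adjusted p up to 0.111) and without the pair numbered 3 (adjusted p = 0.0762). Close similarity to the other actin genes makes these values uncertain. The fibroblast and stellate cell markers, with which ACTA2 is often read, had the sums given above, and their part in this rise was not tested.

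AXL (values by array above) rose with treatment by 0.60 ± 0.15 in the microsystem (adjusted p = 0.0217) and 0.65 ± 0.15 in Petri dishes (adjusted p = 0.0123), with treated arrays above control arrays in both. The microsystem call was lost without microsystem control 2 or 3 (adjusted p up to 0.0805), and without the pair numbered 3 the difference there was 0.35 (adjusted p = 0.115, the highest of its alternatives, which began at 0.0144). The Petri call was lost without Petri treated 3 (adjusted p = 0.0605, from 0.00104 to 0.0605 over the alternatives). VCL (probe set 7928444), the vinculin that links talin and integrins to actin, read 7.94, 7.97 and 7.78 in treated against 7.48, 7.46 and 7.28 in control microsystem cells, and 7.57, 7.81 and 7.70 in treated against 7.39, 7.33 and 7.45 in control Petri cells. Treated arrays were above control arrays in both. VCL rose by 0.49 ± 0.09 in the microsystem (adjusted p = 0.00602), a call that held without each single array, and by 0.30 ± 0.09 in Petri dishes (adjusted p = 0.0466), a call lost in 8 of the 12 such fits.

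TAGLN2, a transgelin of non-muscle cells, read 5.71, 6.13 and 6.33 in treated against 5.63, 5.47 and 5.68 in control microsystem cells, and 6.40, 6.66 and 6.54 in treated against 6.11, 6.05 and 5.97 in control Petri cells. Its treated arrays were above the control arrays in both, and it rose by 0.46 ± 0.13 in the microsystem and 0.49 ± 0.13 in Petri dishes (adjusted p = 0.0453 and 0.0309). In the microsystem PDLIM7, a LIM protein of actin bundles, rose by 0.45 ± 0.13 (adjusted p = 0.0488), PXN rose by 0.30 ± 0.08 (adjusted p = 0.0335) and TEAD4 fell by 0.29 ± 0.08 (adjusted p = 0.0473). In Petri dishes PDLIM7 differed by 0.16 ± 0.13, PXN by 0.23 ± 0.08 and TEAD4 by -0.03 ± 0.08. Not past the threshold in the microsystem, CNN1 differed by -0.11 ± 0.12, FHL2 by 0.00 ± 0.09 and AJUBA by 0.06 ± 0.10. In Petri dishes CNN1 rose by 0.50 ± 0.12 (adjusted p = 0.0142) and FHL2 by 0.35 ± 0.09 (adjusted p = 0.0294), while AJUBA fell by 0.41 ± 0.10 (adjusted p = 0.024). The test of the difference between the treatment effects called 0 of these genes. Of the 12 fits without a single array, the microsystem call held in 1 for TEAD4, 2 for TAGLN2, 4 for PDLIM7, 7 for PXN and 10 for AXL, and that of PXN was lost when its 2 probe sets were averaged. Without the pair numbered 3 the microsystem calls of TEAD4, TAGLN2, PDLIM7 and PXN were lost too, with adjusted p of 0.127, 0.152, 0.205 and 0.13.

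In the main fit, which has no replicate block, the YAP targets other than AXL did not pass in either culture. With a replicate block within each culture, CCN1 and CCN2 passed as lower in Petri dishes. ANKRD1 and CCN1 then passed as higher in the microsystem, with values given further below. ANKRD1 differed by 1.48 ± 0.48 in the microsystem (adjusted p = 0.072), where its groups overlapped through control array 3, and by 0.07 ± 0.48 in Petri dishes (adjusted p = 0.946). Without the pair numbered 3 the microsystem difference was 1.68 (adjusted p = 0.00213, from 0.00162 to 0.251 over the alternatives). CCN2 differed by -0.00 ± 0.22 in the microsystem (adjusted p = 0.999) and by -0.44 ± 0.22 in Petri dishes, with all 3 treated arrays below all 3 control arrays (adjusted p = 0.231). CCN1 differed by 0.52 ± 0.34 in the microsystem (adjusted p = 0.351) and -0.43 ± 0.34 in Petri dishes (adjusted p = 0.448). TAGLN differed by 0.16 ± 0.44 and -0.58 ± 0.44. WWTR1 differed by 0.14 ± 0.16 and 0.39 ± 0.16, THBS1 by 0.39 ± 0.43 and -0.23 ± 0.43, TNS1 by 0.35 ± 0.18 and 0.43 ± 0.18, and ITGB1 by 0.30 ± 0.09 and 0.09 ± 0.09 in the microsystem and Petri dishes. The other members without a call (YAP1, TEAD1, LATS2, AMOTL2, SRF, CRIM1, ACTB, ACTG1, TPM1, TPM2, TPM4, CALD1, CNN2, CNN3, MYL9, ACTN1, ACTN4, ZYX and TNS3) were within 0.25 of 0 in both cultures.

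In Petri dishes, same-numbered arrays deviated together. The replicate block within each culture takes the numbers as pairs, which the titles do not state. With it, 12 members passed in place of 7, 8 of them higher and 4 lower. Those gained were WWTR1 (0.39, adjusted p = 0.00771), PXN (0.23, adjusted p = 0.0483), CCN1 (-0.43, adjusted p = 0.00842), CCN2 (-0.44, adjusted p = 0.0029) and TAGLN (-0.58, adjusted p = 0.00676). Over all alternatives their adjusted p reached 0.332, 0.288, 0.758, 0.389 and 0.806, each in the order named. WWTR1 and CCN2 also passed in Petri dishes without the pair of microsystem arrays numbered 3 (adjusted p = 0.00841 and 0.0032) and in a fit of the Petri arrays alone. When single Petri arrays were left out, the Petri count was 4 (control 1 or control 2), 2 (control 3), 6 (treated 1), 3 (treated 2) and 1 (treated 3). Of the calls, ACTA2 alone was kept each time. In the microsystem 8 members passed without microsystem control 1 and 6 without Petri treated 1. The count was 5 without microsystem treated 1, Petri control 1 or Petri control 3. It was 4 without Petri control 2, Petri treated 2 or Petri treated 3. It was 3 without microsystem control 3, microsystem treated 2 or microsystem treated 3, and 2 without microsystem control 2. ACTA2 and VCL were kept throughout. Petri treated 3 has an unexplained asterisk in its description.

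**Figure D4:**
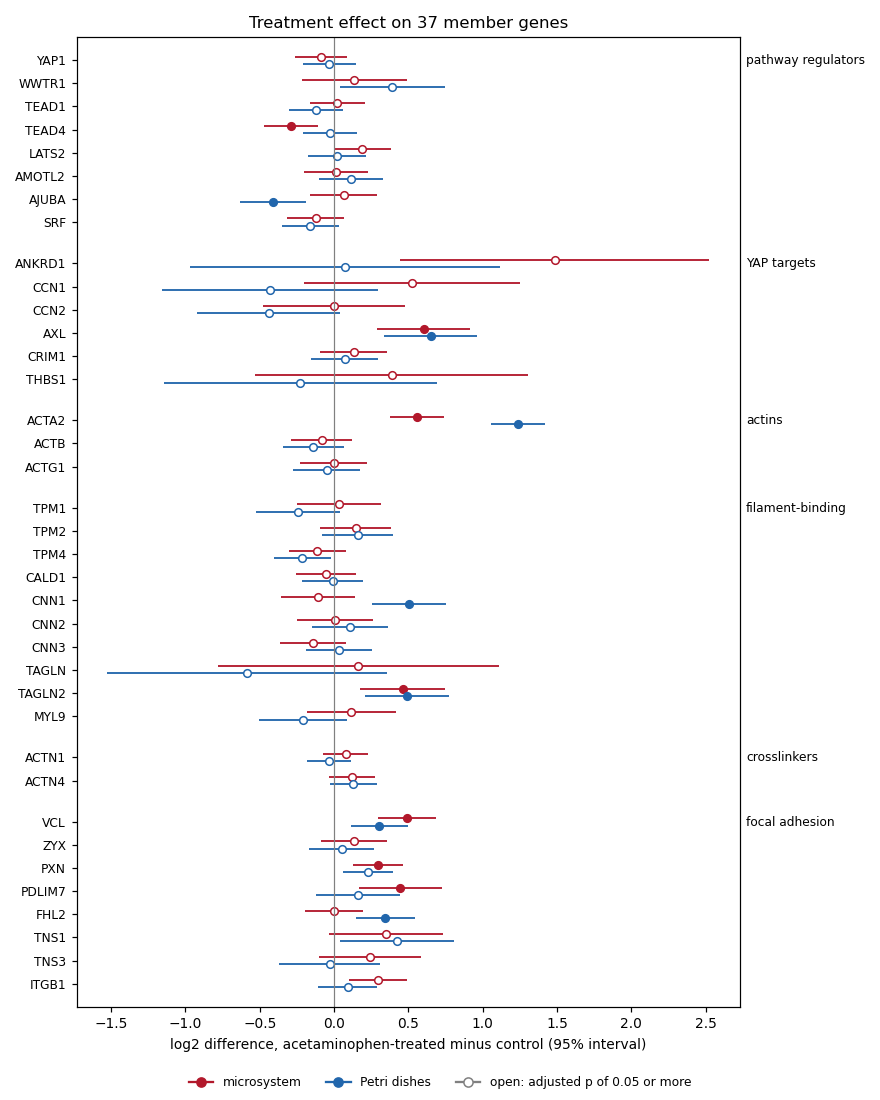
Treatment effect (acetaminophen-treated minus control, log2, with 95% interval) for the 37 tested members, grouped by role, in the microsystem (red) and in Petri dishes (blue), where filled points passed adjusted p under 0.05. ACTA2 in Petri dishes has the largest called difference, and ACTA2, AXL, TAGLN2 and VCL are filled in both cultures.

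The difference between the treatment effects (microsystem minus Petri) passed for 0 of 37 members in limma, against 0.0303% of all genes (0.00758% that rose and 0.0227% that fell), and an unadjusted p was under 0.05 for 5 of the 37 members and for 7.35% of all genes. ACTA2 came nearest, at -0.68 ± 0.12 (adjusted p = 0.0776), a smaller rise in the microsystem than in Petri dishes. It passed with an intensity trend, with array weights and without microsystem control 1, and its adjusted p spanned 0.00999 to 0.268. CNN1 differed by -0.62 ± 0.16 (adjusted p = 0.339), AJUBA by 0.47 ± 0.15 (adjusted p = 0.445), FHL2 by -0.34 ± 0.13 (adjusted p = 0.581) and ANKRD1 by 1.41 ± 0.68 (adjusted p = 0.7). AXL differed by -0.05 ± 0.21 and TAGLN2 by -0.03 ± 0.19, with adjusted p of 0.981 and 0.984.

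Related genes outside the 41 were counted by list, to be read against the shares of all genes (18.9% fell and 22.6% rose in treated cells, 18.3% fell and 26.5% rose in control cells). Of 19 other Hippo regulators tested, 8 fell and 4 rose in treated cells of the microsystem and 7 fell and 5 rose in control cells. WWC1, a scaffold that activates LATS kinases, fell by 1.08 ± 0.09 in treated and 1.09 ± 0.09 in control cells, and WWC2, a close relative, by 0.95 ± 0.11 and 0.83 ± 0.11, while TEAD2 rose by 0.85 ± 0.18 and 1.03 ± 0.18. Of 14 other YAP and TAZ targets, 7 fell and 1 rose in treated and 6 fell and 2 rose in control cells. IGFBP3, which binds insulin-like growth factors, read 6.26, 6.18 and 6.31 in treated and 6.14, 6.35 and 6.27 in control microsystem cells, against 8.37, 8.42 and 8.52 in treated and 8.30, 8.06 and 8.20 in control Petri cells. The cultures lay more than 1 log2 unit apart, a fall of 2.19 ± 0.09 in treated and 1.94 ± 0.09 in control cells. Also among these, GADD45A and PTPN14 fell in treated cells by 0.71 ± 0.11 and 0.69 ± 0.12, and in control cells GADD45B fell by 0.99 ± 0.14 and MYOF, a ferlin of the cell membrane, rose by 1.12 ± 0.25.

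Of 24 other integrin and focal adhesion genes, 3 rose and 4 fell in treated and 2 rose and 5 fell in control cells of the microsystem, which is 7 of 24 in each kind of cell, against 41.4% and 44.9% of all genes called in either direction. Their medians were 0.01 and 0.02. The list was led by the LIM protein CSRP1, which rose by 0.97 ± 0.15 and 1.27 ± 0.15. PDLIM1 and the integrin chain ITGB5 fell by 0.68 ± 0.07 and 0.63 ± 0.07 in treated cells, and the actin elongation factor ENAH and PDLIM5 fell by 1.03 ± 0.22 and 0.93 ± 0.12 in control cells. The median of the other YAP and TAZ targets was -0.22 in treated and -0.20 in control cells.

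With acetaminophen, 0 of 19 Hippo genes passed in limma in the microsystem. An unadjusted p was under 0.05 there for 6 of the 19, and for 25.8% of all genes. In Petri dishes the scaffold SAV1, the LIM protein LIMD1 and the kinase STK4 rose (0.51 ± 0.09, 0.40 ± 0.11 and 0.38 ± 0.09). NT5E, an ectonucleotidase and YAP target, fell by 0.63 ± 0.17 in the microsystem and 0.62 ± 0.17 in Petri dishes, alone of its 14. The laminin-binding integrin chain ITGA3 rose by 0.84 ± 0.19 in the microsystem and 0.76 ± 0.19 in Petri dishes. ENAH (0.9985 ± 0.2165) and the collagen-binding chain ITGA2 (0.81 ± 0.21) rose in the microsystem, and PDLIM1 (0.50 ± 0.07) in Petri dishes. In all, of the 24 adhesion genes, 5 rose in the microsystem with 1 that fell, and 2 rose in Petri dishes with 0 that fell. The shares over all 13199 genes were 6.39% (rose) and 2.67% (fell) in the microsystem, and 8.38% (rose) and 1.98% (fell) in Petri dishes, where the 2 adhesion genes were near the background.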

How the data were processed

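Gene expression was measured on 12 arrays, 3 in each of 4 groups. The authors deposited log2 intensities of each probe set, computed with the RMA method of Affymetrix Expression Console (robust multi-array average) according to the submitters' processing notes, and no further normalization was applied. No program version, dose or genome build is named in the labels. Symbols were taken from the probe annotation of the array (19158 of 32321 probe sets with 1 symbol, 1388 with several, 11775 unnamed here) and updated through gene identifiers. The probe set with the highest mean stood for a gene. To be tested, a gene had to lie above the 40th percentile of an array's probe sets on 3 arrays or more.

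All 12 arrays entered 1 linear model in limma (version 3.58.1, R version 4.3.3), with a coefficient for each group and empirical Bayes moderation (8 residual, 5.35 prior degrees of freedom). P-values are two-sided and adjusted over 13199 genes (Benjamini-Hochberg), and ± is the SE of the fit. The procedure was tested on simulated data. Tables and plots used data.table (version 1.17.8), pandas (2.3.3), Python (3.11.15) and matplotlib (3.10.9). Of each companion list, at most 3 genes past the threshold with the largest difference are named per comparison. Of these lists, 1 is not reported here. The members and lists were chosen with earlier results of these data known. CD68 and CD14 are named after their values were seen.

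To see whether the replicate numbers in the titles pair arrays, the deviations of same-numbered arrays from their group means were correlated across genes. The 3 values of r were 0.48, 0.19 and 0.31 for the Petri treatment, all above 0.1, the limit used here for treating numbers as pairs. The values were 0.11, 0.07 and 0.60 for the microsystem treatment, 0.14, -0.14 and 0.13 for culture among treated cells, and 0.18, -0.03 and 0.13 for culture among control cells. That limit has no reference distribution behind it. The titles give numbers only, and r cannot tell a shared culture from a shared technical source. Alternatives were a replicate block over all arrays or within each culture, quantile normalization, equal array medians, the filter dropped or set at the 60th percentile, averaged probe sets, an intensity trend, array weights, a 1.5-fold minimum, a fit to the compared arrays alone, and leaving out single arrays or both microsystem arrays numbered 3.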

Additional observations from a re-analysis of the deposited data

How the results depend on the processing

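Members past the threshold numbered 7 for treatment in either culture, 23 and 25 for culture in treated and control cells, and 0 for the difference. For treatment in Petri dishes, the count moved to 12 with the replicate block within each culture, 11 with array weights and 2 with a minimum of 1.5-fold, and lay between 1 and 7 without single arrays. For treatment in the microsystem it moved to 4 with no filter, 1 at 1.5-fold, 3 without both microsystem arrays numbered 3 and 2 with only the arrays compared, and lay between 2 and 8 without single arrays. For culture it moved to 12 in treated and 11 in control cells at 1.5-fold, and lay between 19 and 26 without single arrays in each. For the difference it moved to 1 with the block within each culture (CCN1), with the intensity trend and with array weights (ACTA2 in both), and lay between 0 and 1 without single arrays. The minimum of 1.5-fold is stricter by construction, and for the other settings the cause was not tested. With the replicate block over all arrays the counts were 7 (Petri treatment), 8 (microsystem treatment), 25 and 27 (culture in treated and control cells) and 0 (difference). Outside the Petri treatment some same-numbered arrays had an r of 0.1 or less, so those numbers were not taken as pairs, although both microsystem arrays numbered 3 deviated together (r = 0.60). With the block within each culture, ANKRD1 (1.48, adjusted p = 0.00162) and CCN1 (0.52, adjusted p = 0.0037) gained and TEAD4 (adjusted p = 0.0509) lost a call for treatment in the microsystem. Quantile normalization gave 2 members that rose and 25 that fell with culture in control cells, against 3 and 22. For all genes, treatment in Petri dishes called 1367, against 3602 with array weights and 2180 with the block within each culture. Treatment in the microsystem called 1196, against 446 with only the arrays compared, 678 without both arrays numbered 3 and 2109 with the block within each culture. No called member changed sign, and 4089 of the single-member values kept their side of the threshold, while 60 gained and 175 lost a call. Signal limits CNN1, AMOTL1, TGFB2 and ITGA5, which lie near or under the 40th percentile (4.8 to 4.9). Without the filter the last 3 passed in no comparison.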

Other observations

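The members differed in how far arrays of one group spread. The within-group SD, pooled over the 4 groups, had a median of 0.1311 over the 37 members and 0.125 over all genes, but 8 members lay above the 90th percentile of all genes. These were ANKRD1 (0.758), TAGLN (0.686), THBS1 (0.667), CCN1 (0.526), CCN2 (0.338), TNS1 (0.263), WWTR1 (0.239) and TNS3 (0.230). For 15 of 37 members (40.5%), the arrays numbered 3 were the highest in both microsystem groups, against 20.5% of all genes, and ANKRD1, CCN1, CCN2, THBS1 and TAGLN were among them. WWTR1, YAP1, VCL and TNS3 were lowest there in both groups. In Petri dishes the arrays numbered 1 were the lowest in both groups for 13 members (35.1%), against 25.4% of all genes, and those numbered 3 the highest for 14 (37.8%), against 16.1%. What sets these arrays apart was not tested.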
